A study of Mus musculus with 2 samples.

Results

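Translation efficiency was measured for the mRNAs of unstressed NIH3T3 cells, an immortalised line of mouse fibroblasts, on 1 two-colour array. The cells came from 4 plates without a stress treatment, with bovine serum at 10% of the medium, and the labels name no transgene or deletion. To freeze polysomes, the cells received cycloheximide shortly before lysis, per the paper's methods. Their lysate was spun through a 10 to 40% sucrose gradient, and the gradient was pooled into polysome-bound RNA (P, labelled with Cy3) and free RNA plus monosomes (FM, labelled with Cy5). RNA from 3 preparations was pooled before labelling, so the array is 1 sample without a replicate, and no value below has a test or a p-value. The mRNAs described are the coding RefSeq accessions whose A value, the average of the Cy3 and Cy5 signals on the log2 scale, exceeded 5.5. They numbered 8464 of the 18745 coding accessions with a usable spot (45.2%) and stood for 8314 genes.

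A ribosome that reads an mRNA occupies it while others follow, so an mRNA in active translation commonly carries several ribosomes and sediments in the polysomes. An mRNA that is rarely initiated stays as a free ribonucleoprotein particle or carries a single ribosome. The FM signal by itself does not show how often an mRNA is initiated, and the length of the reading frame was not examined. Messages of the translation machinery commonly begin with a terminal oligopyrimidine (TOP) tract, an unbroken run of C and T at the cap that places them under control by growth signals and can hold them outside polysomes. Other known brakes are the iron response element of the ferritin mRNAs and upstream open reading frames (uORFs), short frames that intercept the scanning ribosome.

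Start sequences are shown here for messages at both ends of the distribution, because the TOP tract is read from the first bases of an mRNA. They run from 10 bases before to 20 bases from the RefSeq gene start on assembly GRCm38.p6, and capitals mark an unbroken run of C and T of at least 8 bases that reaches into the 30 bases on either side of the start. The first 6 belong to mRNAs that were held in FM and carry such a run, Rpl41 and Tpt1 to mRNAs that were held in FM and carry none, Rpl14 and Rpl7a to ribosomal protein mRNAs that were held back less, and Prdx1 and Psmb5 to mRNAs that were loaded onto polysomes.
Rps12 (chr10:23787190-23787219, minus strand): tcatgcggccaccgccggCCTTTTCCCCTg
Rps27 (chr3:90213629-90213658, minus strand): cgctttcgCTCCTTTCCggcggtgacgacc
Rps18 (chr17:33955646-33955675, minus strand): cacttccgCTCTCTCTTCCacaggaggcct
Fau (chr19:6057937-6057966, plus strand): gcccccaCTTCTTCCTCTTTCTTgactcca
Eef1a1 (chr9:78481705-78481734, minus strand): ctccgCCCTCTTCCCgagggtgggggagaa
Rack1 (chr11:48800350-48800379, plus strand): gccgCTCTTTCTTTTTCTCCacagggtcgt
Rpl41 (chr10:128549149-128549178, minus strand): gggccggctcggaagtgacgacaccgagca
Tpt1 (chr14:75845246-75845275, plus strand): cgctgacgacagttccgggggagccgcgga
Rpl14 (chr9:120571507-120571536, plus strand): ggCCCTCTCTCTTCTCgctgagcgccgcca
Rpl7a (chr2:26910797-26910826, plus strand): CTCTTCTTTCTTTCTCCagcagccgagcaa
Prdx1 (chr4:116685589-116685618, plus strand): gcgcgctgtcgggcgaCCTCTTCCTgcgtt
Psmb5 (chr14:54617976-54618005, minus strand): tgcccttgctaaacatggcgctggctagcg

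Of the transcript spots, 42.5% were well above background for P and 46.3% for FM, and no spot was flagged as saturated. None of the 153 negative control spots had A above 5.5. Every probe was well above background in both channels for 7791 members (92.0%), and 544 members had an FM signal and 440 a P signal that was not. For log2 P/FM, the log2 ratio of P to FM signal, the spread between spots had a median standard deviation (SD) of 0.083 over the 92 probes printed more than once. The spread between probes had a median SD of 0.27 over the 2524 mRNAs with several probes above the filter. In 393 of those mRNAs (15.6%) the probes spanned 1 log2 unit or more. These spreads describe the array and leave out the spread between preparations and labellings, and 5037 members rested on a single spot. Of 9 fibroblast marker mRNAs, among them Col1a1, Col1a2, Vim, Thy1 and Sparc, all 9 were members and 8 were well above background in both channels. Of 29 accessions for markers of epithelial, blood, endothelial, neuronal, muscle, fat and liver cells, 2 passed the filter, Cd3e at A 6.06 and Fabp4 at A 5.88.

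Most mRNAs of these growing cells gave more signal in the polysomes than outside them. The median log2 P/FM was 0.47, with quartiles at -0.21 and 1.08 and the 5th and 95th percentiles at -1.45 and 1.91. Log2 P/FM was at or above 0 for 5752 members (68%), at or above 1, a 2-fold excess in P, for 2339 (27.6%), and at or below -1 for 779 (9.2%). It reached 2 in 325 members (3.84%) and was -1.5 or lower in 399 (4.71%). The position of 0 depends on dye, RNA input and processing. Per the paper's methods, P held more total RNA than FM in unstressed cells, and that proportion was kept for labelling. Its part in the median was not tested. The median was -0.14 with normexp background correction and 0.15 after loess normalization, with 42.8% and 56.6% of members at or above 0. The split of 2339 above 1 against 779 below -1 became 893 against 377 with normexp, and 1168 against 1131 after loess, where 50.8% of such members lay above. Families are therefore also described relative to the median of all members.

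The lower tail was longer than the upper one. It reached -6.51, against 3.63 at the top, and 53 members lay at or below -3 while 11 lay at or above 3. Of the 53, 15 encoded proteins of the cytosolic ribosome, as did 76 of all 8464 members.

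**Figure D1:**
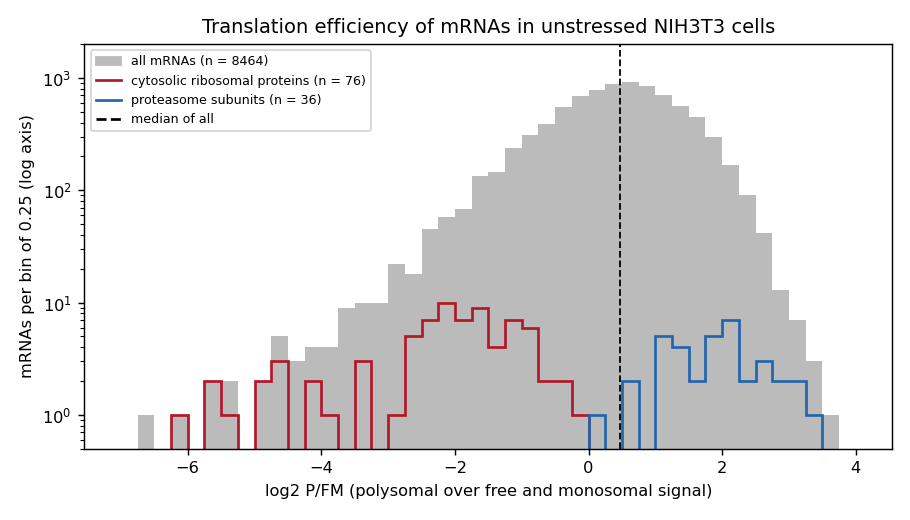
Number of mRNAs (log axis) in bins of log2 P/FM for all 8464 members, the 76 mRNAs of cytosolic ribosomal proteins and the 36 of proteasome subunits, with the median of all members (0.47) as a dashed line. Ribosomal protein mRNAs fill the lower side from -6.24 to -0.15 and proteasome mRNAs the upper side from 0.10 to 3.27.

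The 10 lowest values among well measured members, those with A above 7 and every probe well above background, came almost entirely from the translation machinery. Pabpc1, the cytoplasmic poly(A)-binding protein that bridges the tail and cap of an mRNA, gave a P signal of 3756 and an FM signal of 342862. Its log2 P/FM was -6.51, a 91.3-fold excess in FM. Rps12, a small-subunit protein, gave 5852 in P and 443674 in FM, a 75.8-fold excess. The ratio of FM to P signal was higher in both than in any other well measured member.

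Next in order were Rplp1 (-5.67), Rpl41 (-5.52), Rpl12 (-5.32), Rps20 (-4.87), Rps29 (-4.83), Rps27 (-4.72) and Rps2 (-4.71), all of them parts of the ribosome. Rps2 was read by 2 probes, at -4.91 and -4.51, with an SD of 0.29, and its P signal was 10722 against 280577 in FM. The exception was Fth1, the ferritin heavy chain that stores iron, at -4.60 with 3618 in P and 87787 in FM. From Rps20 to Fth1, neighbours in this order differed by at most 0.11, less than the typical SD between probes of 0.27, so their order is not resolved. The probes of Rpl12 and Rps29 were placed by the array's annotation on chromosomes 10 and 2 (mm9, chr10:29418592-29418651 and chr2:172335024-172335083), whereas RefSeq places the genes on chromosomes 2 and 12. Ribosomal protein genes have many near-identical copies, and signals of such copies cannot be told apart here.

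The 10 highest values came from several machines of the cell. Snrpb, a core Sm protein of the spliceosome, gave 3912 in P and 315 in FM, a log2 P/FM of 3.63 or a 12.4-fold excess in P. Its probe lies at chr2:130001112-130001171 on mm9. Prdx1, a peroxiredoxin that removes hydrogen peroxide, gave 14744 in P and 1307 in FM (3.50). Prdx4, the peroxiredoxin of the secretory pathway, was at 3.21. Of the proteasome, Psma6 was at 3.27, Psmb5, which carries the chymotrypsin-like site, at 3.13, and Psmb2 at 3.12. The others were Chmp2a of the membrane-remodelling ESCRT machinery (3.25), Commd5 (3.22), Bsg, the cell-surface glycoprotein basigin (3.05), and Arl3, a small GTPase of the cilium (3.03). Each of the 10 was read by 1 spot, and the first and the last were 0.61 apart, against a typical SD between probes of 0.27.

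**Figure D2:**
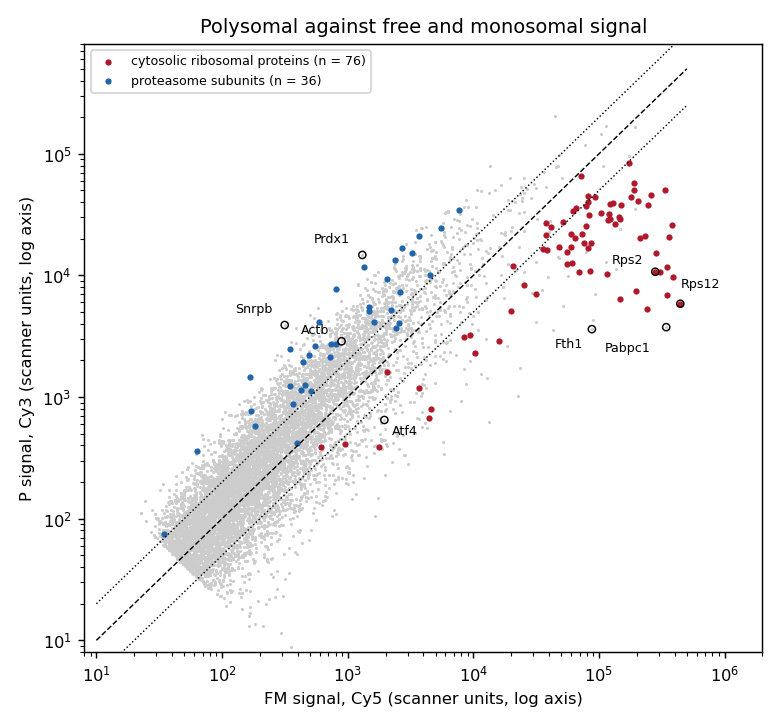
P signal against FM signal for every member, both in scanner units on log axes, with equality as a dashed line and 2-fold differences as dotted lines. The 76 ribosomal protein mRNAs all lie below the dashed line and 65 of them below the lower dotted line, while 33 of 36 proteasome mRNAs lie above the upper dotted line.

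Of 47 gene lists, which hold 1284 members, 14 had a median at least 0.5 above the median of all members, 12 had a median at least 0.5 below it, and 21 lay between. The lists set apart upward were mostly of enzymes, chaperones and subunits of complexes, beside actin and its regulators and the galectins, S100 proteins and annexins. With the processed signals of the scanner software 7 lists lay above, and after loess 8, while with normexp 4 lay below. Those set apart downward were the cytosolic ribosomal proteins, elongation factors and other TOP mRNAs, the genes of iron control and of uORFs, the giant proteins and several families of regulators.

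**Figure D3:**
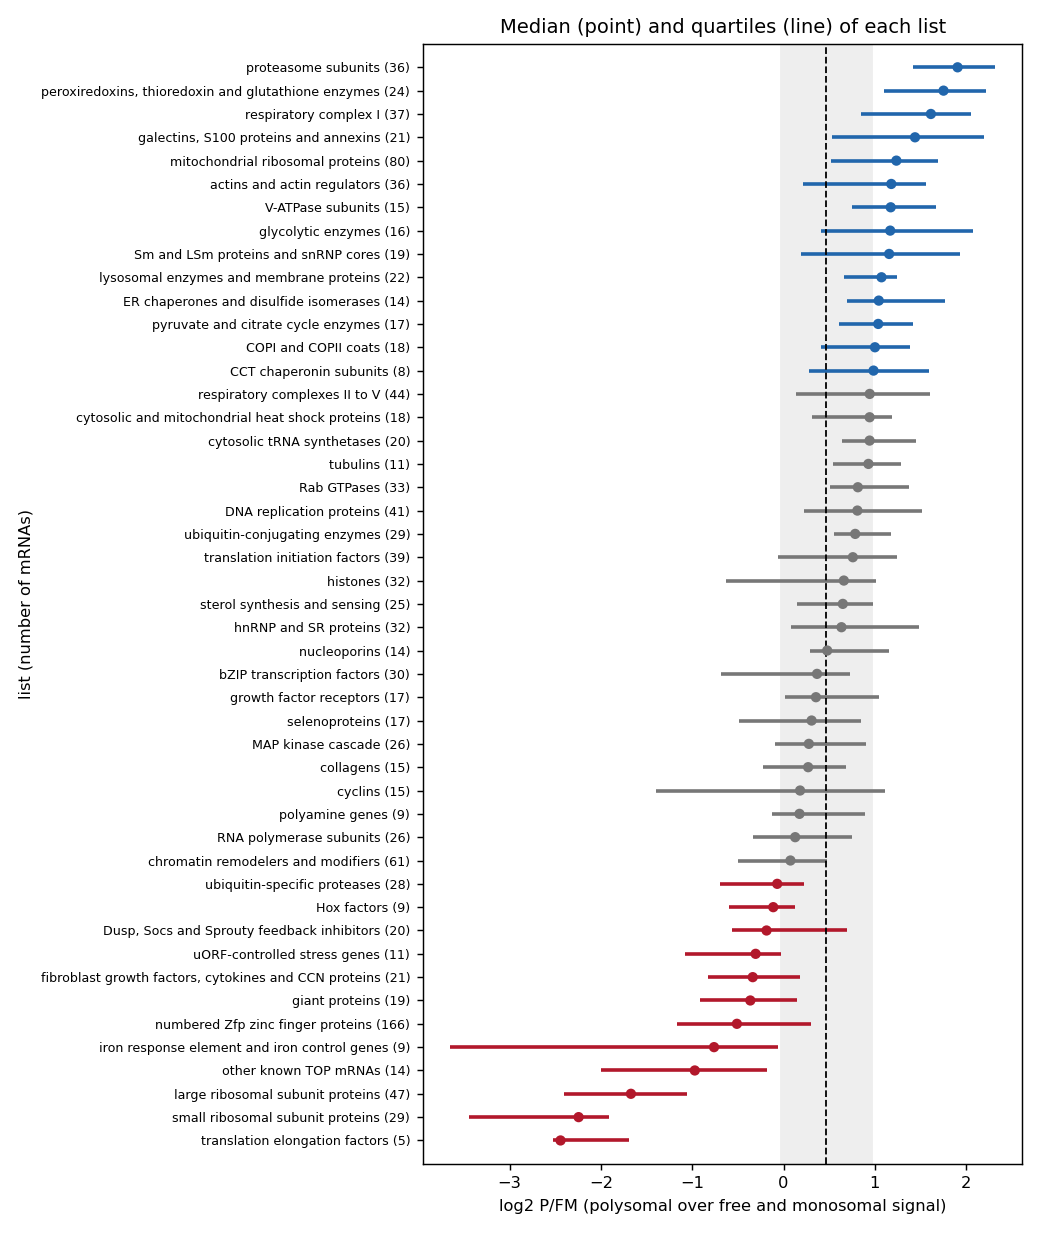
Median (point) and quartiles (line) of log2 P/FM in each of the 47 lists, with the number of mRNAs in brackets. The dashed line is the median of all members and the grey band spans 0.5 on either side of it. Blue lists lie above the band, up to proteasome subunits at 1.91, and red lists below it, down to translation elongation factors at -2.44.

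The mRNAs of the cytosolic ribosome gave more signal in FM than in P. All 76 members of its protein lists lay below 0, and 65 (85.5%) lay at or below -1, against 9.2% of all members. The small-subunit list had a median of -2.25 with 28 of 29 members at or below -1, and the large-subunit list -1.67 with 37 of 47. The small-subunit list ran from Rps12 up to Rps9, at -0.89 with 27749 in P and 51287 in FM. The large-subunit list ran from Rplp1, part of the acidic stalk that recruits elongation factors, up to Rpl27, which was nearly even at 65473 in P and 72444 in FM (-0.15). The brightest members were Rps16 (-1.73) and Rpl37a (-2.73). Rpl4, named in the study's text, was at -1.55 with 3212 in P and 9419 in FM. Members of one particle thus spanned 6.10 log2 units. Of the 76, 28 had 2 or more probes, and the largest SD between probes of one mRNA was 1.31. A range over many mRNAs and an SD over few probes are unlike measures. Across the 76, Spearman's rho of log2 P/FM was -0.23 with A and 0.12 with the start of the probe in its transcript.

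Elongation factors, which bring tRNAs to the ribosome and move it along, stood with the ribosome. Eef1b2, an exchange factor for eEF1A, was at -3.14 with 12992 in P and 114129 in FM. Eef1a1 was at -2.53 and Eef1g at -2.44. Eef2, the translocase, was at -1.70 ± 0.41 (SD over 3 probes). The remaining member, Eef1d, was at 0.56, from probes that were not all well above background.

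Among 14 accessions for other mRNAs described as TOP mRNAs, 7 lay at or below -1 (50%, against 9.2% of all members) and the median was -0.97. After Pabpc1 came Tpt1, the translationally controlled tumour protein, at -3.61, and Rack1, a scaffold on the small subunit, at -2.61 with probes that differed by an SD of 0.97. Eif3f was at -2.08, Eif3h at -1.79, Eif4b at -1.58 and Eif3e at -1.13. The list was not uniform. Naca, a subunit of the nascent polypeptide-associated complex, was at -0.82, Nap1l1, a histone chaperone, at -0.45, and the 2 accessions of Hnrnpa1, a splicing regulator, at -0.36 and -0.12. Vim, the fibroblast intermediate filament, was at 0.23, Npm1, a nucleolar chaperone, at 0.32, and Btf3, the partner of Naca, at 1.59. Most of these were named after their values were seen, to show the whole list.

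The other parts of the translation apparatus were not held back as a whole. Initiation factors had a median of 0.76, with 14 of 39 at or above 1 (35.9%, against 27.6% of all members) and 6 at or below -1 (15.4%, against 9.2%). The eIF3 complex, the scaffold that joins mRNA and small subunit, had 4 of 12 members at or above 1 and 4 at or below -1, beside the same 27.6% and 9.2% of all members. Eif3b and Eif3c both reached 1.45, against Eif3f and Eif3h above. The 8 members of eIF2 and eIF2B, which deliver the initiator tRNA and recharge that factor, had a median of 0.89. None of these 8 was at or below -1, where 9.2% of all members lay, so the group is too small to differ there. Within the eIF4 group, formed by gene symbol and not by function, the helicase paralogs Eif4a3 (2.48) and Eif4a2 (-2.21 ± 0.16, SD over 2 probes) stood at opposite ends. Cytosolic tRNA synthetases had a median of 0.94, from Qars (-0.72) to Hars (2.59). Of 20, 9 were at or above 1 (45%, against 27.6% of all members).

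Mitochondrial ribosomal proteins, which build a separate ribosome, showed the opposite of their cytosolic counterparts. Their median was 1.24, with 47 of 80 at or above 1 (58.8%, against 27.6% of all members). At or below -1 were 3 (3.75%, against 9.2%). Mrps28 led at 3.00, with 2842 in P and 355 in FM. The large-subunit (1.32, n = 50) and small-subunit (1.20, n = 30) parts were alike in median. Mrpl42 was the exception at -2.79 ± 0.31 (SD over 2 probes), and Mrpl33, the brightest, was at -1.12.

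**Figure D4:**
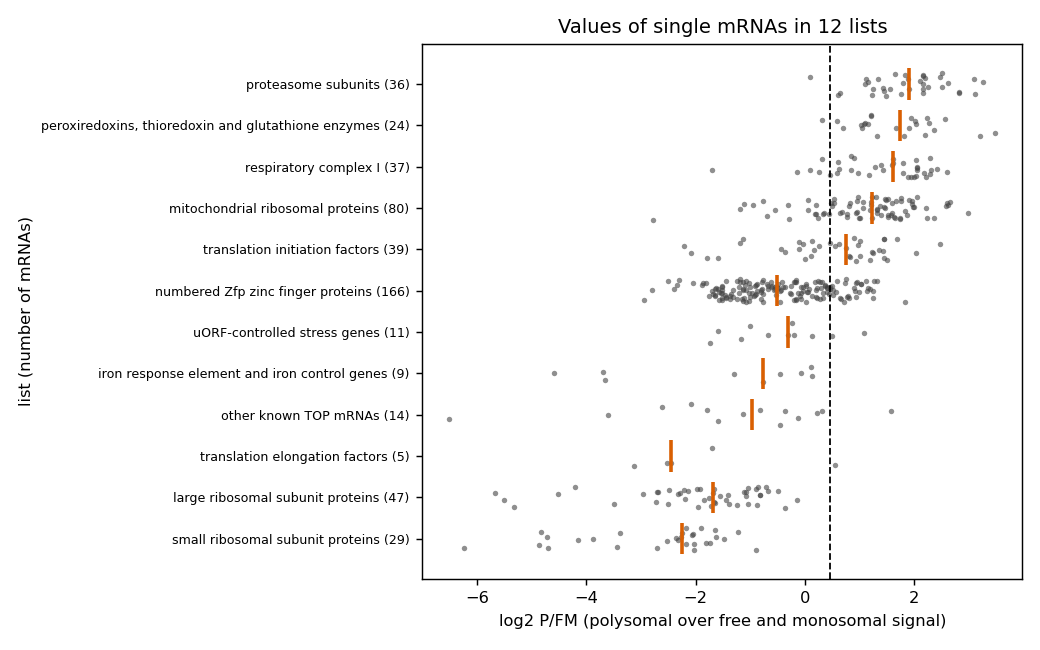
Log2 P/FM of every member of 12 lists (points, spread vertically at random), with the list median in orange and the median of all members dashed. The cytosolic ribosomal lists lie wholly below 0, whereas the initiation factor and iron lists are spread over several log2 units.

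Subunits of the proteasome, the protease that degrades ubiquitin-tagged proteins, gave the highest median of any list at 1.91, which is 1.44 above all members. Of 36 members, 33 were at or above 1 (91.7%, against 27.6% of all members) and 17 at or above 2 (47.2%, against 3.84%). None lay below 0. By name, the alpha ring of the core had a median of 2.21, its beta ring 2.49, the ATPases of the regulatory cap 1.40 and the other cap subunits 1.78. Psmb4, the brightest, gave 34642 in P and 7681 in FM (2.17). Psmd1, a scaffold of the cap, was lowest at 0.10, with 419 in P and 392 in FM. Psmb10, an inducible subunit of the immunoproteasome, was at 0.65.

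Peroxiredoxins, thioredoxins and glutathione enzymes, which keep the cytosol reduced, followed with a median of 1.75. Of 24 members, 21 were at or above 1 (87.5%, against 27.6% of all members). All 6 peroxiredoxins were at or above 1. Gsto1, a glutathione transferase, was the brightest at 49959 in P and 10786 in FM (2.21). Gclc, which catalyses the first step of glutathione synthesis, was lowest at 0.33. Selenoproteins, which include other antioxidant enzymes and are made by reading a stop codon as selenocysteine, did not share this level. Their median was 0.31, with 3 of 17 members past 1 at either side (17.6%, against 27.6% of all members above and 9.2% below), from Txnrd1 at 1.27 down to Selenow at -4.11 (338 in P, 5831 in FM).

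Nuclear-encoded respiratory chain mRNAs were loaded to different degrees. Complex I had a median of 1.61, with 24 of 37 at or above 1 (64.9%, against 27.6% of all members). At or above 2 were 13 (35.1%, against 3.84% of all members). Ndufs4 was highest at 2.61 and Ndufc1 lowest at -1.70 ± 0.25 (SD over 2 probes), the only member at or below -1. Complexes II to V together had a median of 0.94 and were more mixed, with 20 of 44 at or above 1 (45.5%, against 27.6%). All 4 complex II mRNAs were at or above 1, complex III had a median of 1.36 with 5 of 9 at or above 1, complex V had a median of 0.96, and complex IV, at 0.50, lay next to the median of all members. Atp5g3, a ring subunit of ATP synthase, was at 2.45 and Uqcr10, a small subunit of complex III, at -2.93.

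Glycolytic enzymes had a median of 1.17 with 9 of 16 at or above 1 (56.25%), and citrate cycle enzymes 1.04 with 10 of 17 (58.8%). Of all members 27.6% lay there. Ldhb and Ldha, the subunits of lactate dehydrogenase, were at 2.59 and 2.46, and Suclg1, of succinyl-CoA ligase, at 2.79. Isoforms of one step could differ. Eno1, the common enolase, was at 2.02, whereas Eno2, known from neurons, was at -1.15 ± 0.04 (SD over 2 probes). Aldoa was the brightest at 97258 in P and 48456 in FM (1.01).

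Folding and membrane traffic genes lay above the middle. Endoplasmic reticulum chaperones and disulfide isomerases had a median of 1.04 with all 14 members above 0, from Canx (0.37) to Sdf2l1 (2.14). Hspa5, the chaperone BiP, gave 5553 in P and 2655 in FM (1.06). COPI and COPII coats (median 1.00) and V-ATPase subunits (1.17) had no member below 0. Of all members, 68% lay at or above 0. CCT chaperonin subunits, which fold actin and tubulin, were at 0.99 but ranged from Tcp1 at -0.60 to Cct7 at 2.06, although all 8 form one ring. Lysosomal proteins had a median of 1.07, led by the protease Ctsl at 2.68. Heat shock proteins (0.94), tubulins (0.93) and Rab GTPases (0.81) fell just short of the level set for being apart. Median A was 10.3 for the endoplasmic reticulum and heat shock lists, 10.9 for CCT and 9.35 for lysosomal proteins. All members with A of 9 to 11 had a median of 0.87. The coats and V-ATPase had a median A of 8.34 and 8.38, where members of 7 to 9 had 0.51.

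Actin and its regulators had a median of 1.18, with 22 of 36 members at or above 1 (61.1%, against 27.6% of all members). At or below -1 were 5 (13.9%, against 9.2% of all members). Actb was at 1.69 ± 0.06 (SD over 10 spots of 1 probe), with 2875 in P and 894 in FM, and Cfl1, the filament-severing cofilin, at 2.32. The strongest exception was Tmsb4x, thymosin beta 4, which binds actin monomers, at -4.48 with 1014 in P and 22657 in FM. Its relative Tmsb10 was at -1.20. Both Arpc1 isoforms of the Arp2/3 complex also lay low, Arpc1a at -2.81 and Arpc1b at -2.34, while Arpc2, Arpc3, Arpc4 and Arpc5 lay between 1.40 and 1.79. The Tmsb10 and Arpc values were singled out after they were seen.

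Galectins, S100 proteins and annexins, small lectins and calcium-binding proteins, had a median of 1.44. Annexins (1.58, n = 10) and galectins (2.05, n = 4) carried it. The 7 S100 mRNAs had a median of 0.41 and 1 member at or above 1, where 27.6% of all members lay. S100a4, a fibroblast marker and the brightest of the list, gave 164670 in P and 193636 in FM (-0.23).

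Within the spliceosome, values also split by subcomplex. The 7 Sm proteins had a median of 1.54 and the 4 proteins specific to the U1 and U2 particles 1.76, but the 8 LSm proteins, which form a related ring, had 0.33 with 3 members at or above 1 and 3 at or below -1, beside 27.6% and 9.2% of all members. Lsm4 reached 2.63 and Lsm3 was at -2.46. Among the Sm proteins Snrpg was at -1.23, with 10729 in P and 25090 in FM. The 32 hnRNP and SR accessions had none at or below -1 (median 0.63), against 9.2% of all members, and DNA replication proteins had a median of 0.81.

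Regulators were lower. Numbered Zfp zinc finger proteins, many of them transcription repressors, had a median of -0.51. Of 166, 57 were at or below -1 (34.3%, against 9.2% of all members). At or above 1 were 11 (6.63%, against 27.6%). The 166 ranged from Zfp985 (-2.94 ± 0.15, SD over 2 probes) to Zfp593 (1.85). Their median A was 6.92, and all members with A of 5.5 to 7 had a median of 0.09. Ubiquitin-specific proteases (-0.07), Hox factors (-0.11) and the Dusp, Socs and Sprouty inhibitors that shut down kinase and cytokine signals (-0.19) lay slightly below 0. Their median A was 7.01, 6.64 and 7.93, and members with A of 7 to 9 had a median of 0.51. The chromatin list (0.08) stayed within 0.5 of all members, and 1 of its 61 members was at or above 1 (1.64%, against 27.6% of all members). The median probe start of that list was 4100 bases into the transcript. Of members with probes starting at 4000 to 6000, 6.49% were at or above 1.

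Growth factors, cytokines and CCN proteins had a median of -0.34. Cxcl1, a chemokine, was lowest at -2.39 with 271 in P and 1419 in FM. Ccl2, another chemokine, was nearly even at -0.13 ± 0.06 (SD over 10 spots of 1 probe), and Tgfb3 highest at 1.27. Collagens, the main matrix product of fibroblasts, had a median of 0.27 and Col1a2, the brightest, was at 0.75, close to all members.

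Messages known for uORFs had a median of -0.31, with 4 of 11 at or below -1 (36.4%, against 9.2% of all members). Atf4, the transcription factor of the integrated stress response, gave 648 in P and 1959 in FM (-1.60). Ddit3, which encodes CHOP, was at -1.74 and Atf5 at -1.01, whereas Cebpb was at 1.08. The bZIP factors as a whole, which include these 4, had a median of 0.37, with 6 of 30 at or below -1 (20%, against 9.2% of all members) and 5 at or above 1 (16.7%, against 27.6%), with Creb3 the highest of the well measured ones.

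Genes of iron control had a median of -0.76, and none of the 9 accessions was at or above 1, where 27.6% of all members lay. Ftl1, the ferritin light chain, was at -3.70 with 7091 in P and 92404 in FM, beside Fth1. Slc40a1, the iron exporter ferroportin, was listed at -3.65, but from a probe that was well above background only in FM (164). Tfrc, the transferrin receptor, whose iron response elements lie behind the coding region and act on stability, was at -1.30. The polyamine genes, another classic case of translational control, were near all members at 0.18, from Sat1 (-1.72 ± 0.61, SD over 2 probes) to Srm (1.63).

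Cyclins, at a median of 0.18, spread to both sides of it. The 6 A, B, D and E cyclins, which drive the cell cycle, lay between 0.18 and 1.49 with a median of 1.11. The 5 G, I and L cyclins, which are not among the classical phase drivers, all lay at or below -1, from Ccng1 at -1.30 to Ccnl2 at -2.82 ± 0.21 (SD over 2 probes). Of all members 9.2% lay there. The remaining 4 were Ccnk (-0.97), Ccnt1 (-0.23), Ccnf (0.93) and Ccnh (1.42). The groups were formed by name after the values were seen.

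How far the start sequence goes with these levels was examined for the 5449 members with a single RefSeq start. A run of at least 8 C or T that covered a base from -5 to +5 was found for 19 of 49 ribosomal protein mRNAs (38.8%), against 9.40% of members and 9.16% of all 22862 RefSeq genes with a single start. In a window of -30 to +30, chosen after seeing the data because some RefSeq starts lie off the tract, as printed for Rps12, it was found for 35 of 49 (71.4%), against 23.8% of members and 27.2% of all genes. Within the ribosomal proteins, the tract did not go with lower log2 P/FM in the narrow window. The median was -1.64 with and -2.19 without a tract in the narrow window, and -1.98 against -1.93 in the wide one. Among 11 accessions of elongation factor and other TOP mRNAs, values were lower with the tract. The narrow window gave a median of -2.53 for the 3 with and -1.20 for those without. The wide one gave -2.30 for 4 against -0.82. Hnrnpa1, whose 2 accessions share 1 start, counts 2 times among those without, which raises the medians without a tract and lowers the shares below. All of those with a tract lay at or below -1, as did 50% and 42.9% of those without, against 9.2% of all members. Of the starts printed above, Rpl7a has a run of 21 bases and log2 P/FM of -0.82, and Rpl14 a run of 14 and -0.36. Outside the ribosomal proteins, members with and without the narrow tract had medians of 0.42 and 0.51, and 8.52% and 8.54% lay at or below -1. No match says only that the letters are absent from the window.

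Translation efficiency went with signal up to a point. Members with A of 5.5 to 7 had a median of 0.09, those of 11 to 13 a median of 1.09, and the 78 with A above 15 a median of -1.69. Of the 78, 48 were ribosomal protein mRNAs, and the other 30 had a median of 0.60. Across all members Pearson's r with A was 0.17 and Spearman's rho 0.31, and without ribosomal proteins 0.27 and 0.34. mRNAs on one array are not independent replicates.

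Members with probes far into a long transcript had lower log2 P/FM. The start of a probe in its transcript, a lower bound of transcript length, was used as a measure after the data were seen. Median log2 P/FM was 0.54 for probes starting within the first 500 bases (0.70 without ribosomal proteins), 0.99 for those at 500 to 1000, 0.42 at 2000 to 3000 and -0.30 beyond 6000. At 500 to 1000 bases 49.4% of members were at or above 1, and beyond 6000 3.78%. Spearman's rho was -0.30 over 8462 members, and A also fell with probe start (rho -0.35). Within bands of A, without ribosomal proteins, rho was -0.25 for A of 5.5 to 7, -0.33 for 7 to 9, -0.26 for 9 to 11, -0.04 for 11 to 13 and 0.11 for the 181 members of 13 to 18. The proteasome list had a median probe start of 877, and its median of 1.91 exceeded the 0.99 of all members from 500 to 1000. Mitochondrial ribosomal proteins (median probe start 652) were at 1.24 beside the same 0.99. From 1000 to 1500, where all members had 0.88, V-ATPase subunits (1149) were at 1.17 and CCT subunits (1262) at 0.99. Glycolytic enzymes (1562.5) were at 1.17, against 0.62 from 1500 to 2000. Their median A was 11.4, and all members with A of 11 to 13 had 1.09. The part of probe position and signal in the list medians was not tested. The small-subunit ribosomal list had a median probe start of 362, where members outside the ribosome had a median of 0.70. The giant cytoskeletal and adaptor proteins (list median -0.36) had a median probe start of 13994 and lay near the -0.30 of the longest bin, with Macf1 at -2.25 and Plec at 1.04 ± 1.54 (SD over 2 probes).

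Log2 P/FM also differed with probe position within single mRNAs. In 1284 mRNAs with at least 2 well measured probes, the probe nearest the end of the transcript read lower than the one nearest the start in 913 (71.1%), by a median of 0.22. The median difference, last minus first, was -0.09 where the probes lay up to 500 bases apart, -0.36 for 500 to 1500 bases and -0.53 beyond 1500. The last probe was lower by 1 or more in 139 mRNAs and higher by 1 or more in 29. In Sptbn1, a spectrin, the probe starting at base 331 read 1.03 and the one at base 8087 read -1.86. Exosc4, of the RNA exosome, read 2.15 at base 533 and -0.42 at base 1365, and the histone mRNA H2aj 0.25 at base 412 and -2.16 at base 1650. Rprd1b (-0.95, then 1.71) and Pdpk1 (-1.93, then 0.50) went the other way. The part of this trend in the difference between long and short mRNAs was not tested.

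**Figure D5:**
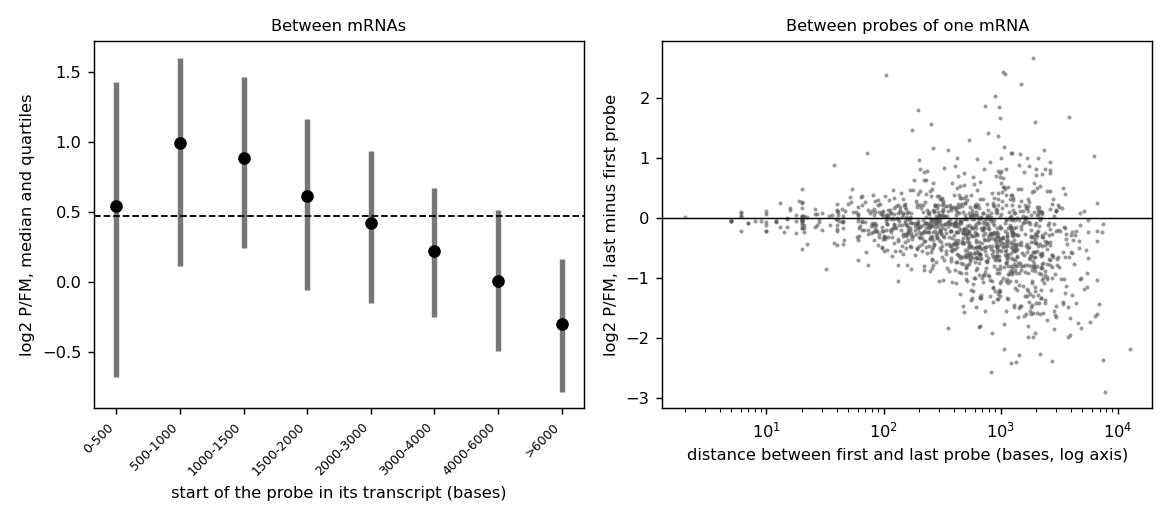
Left, median and quartiles of log2 P/FM in bins of the start of the probe in its transcript, with the median of all members dashed. Right, log2 P/FM of the last minus the first probe of each of 1284 mRNAs against the distance between them (log axis), where 913 points lie below 0.

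Transcript variants of a gene could differ too. Among 62 pairs of accessions of one gene that shared no probe, the median difference was 0.48. The largest were in Map6 (-0.42 and 1.77), a microtubule-associated protein, and Dtymk (0.03 and 1.94), the thymidylate kinase. Fer, a tyrosine kinase, read -1.26 and 0.44, Hnrnpa3 -0.10 and 1.54, and G3bp2, a stress granule protein, -0.08 and 1.43. Probe position differs between such accessions as well, and its part in these differences was not tested.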

How the data were processed

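Members and gene lists were chosen with earlier results of these data known. Per the file headers, spot and background intensity values were extracted by the authors with Feature Extraction (10.7.1 in the submitters' processing notes), together with processed intensity values, a log10 ratio and spot flags. The deposited table of 11483 log2 ratios was used as an alternative. Of its 8021 members, 99.2% equalled the values here within 0.001.

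Per the labels, equal volumes of P and FM RNA were labelled, 300 ng in total, which keeps the proportions of the fractions. Median background was subtracted from mean signals with a floor of 0.5, without normalization. Outlier spots (0.436%) were left out. Spots were averaged per probe, then probes per accession. Array precision is limited by their number, 1. Symbols came from RefSeq (GRCm38.p6), which matched 98.9% of members. Probe positions are the array's, on mm9.

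A list of at least 5 members was set apart where its median differed from that of all members by 0.5 or more. mRNAs named are those of the study's text for these cells, the 10 highest and 10 lowest with A above 7, every probe well above background and unsaturated, the highest, lowest and brightest of each list under the same rule, and the 5 largest differences between probes or accessions. Others were picked after their values were seen. The code for list medians and counts was checked on simulated data with known values. A planned comparison by protein length was not made here, and probe start was used instead. The second array was not used. Versions were Python 3.11.15, pandas 2.3.3 and limma 3.58.1.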

Additional observations from a re-analysis of the deposited data

How the results depend on the processing

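The position of 0 depended on the processing. The median of all members, 0.47, was -0.14 with normexp background correction, 0.15 after loess and 0.0145 without a filter on A. It was 0.87 with the median of the 10 spike-in probes, which ran from -3.65 to 2.18, set to 0. Members at or above 1 numbered 893, 1168 and 3716 with normexp, loess and spike-in scaling, against 2339. Members at or below -1 numbered 377 with normexp, 452 with spike-in scaling, 469 with A above 7, 2469 without a filter and 1305 with each probe by itself, against 779. The 14 lists set apart upward became 7 with the processed signals and with the Feature Extraction log ratio, 8 after loess and 23 without a filter, and the 12 downward became 4 with normexp. The causes were not tested. Relative to the median of all members, each of the 14 and 12 lists kept its side under the 15 alternatives, and 4 of each stayed past 0.5 in all of them. Of 390 list values 306 moved by less than the spread between probes, as did 231 of 348 for 25 named mRNAs. The mRNA values, relative to that median, that moved further came from few settings, in which most of the 25 moved. These were the processed signals, the Feature Extraction log ratio and no filter (25 each), loess (24) and normexp (18). Without a filter the log2 P/FM of an mRNA itself does not change, only the median it is compared with, which was 0.0145. The lists are compared with the same lower median there, and also hold dimmer members. No paired analysis was possible because the control is 1 array. Dim probes limit low values.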
